A study of Mus musculus with 26 samples.

Results

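Pkd1, Pkd2 and Piezo1 were examined across the left ventricles of 26 mice. They are 3 of 56941 genes listed and 3 of the 15357 abundant enough to be tested, and were selected by name as the polycystins and a mechanically gated channel. Pkd1 was selected because it was higher in knockout males, so values of the male genotype contrast describe the members and carry no p-value. The study compared cardiomyocyte knockouts of Ppp2r2a, which encodes the PP2A regulatory subunit B55α, with floxed controls in each sex. All mice carried the floxed alleles. The knockout groups (cKO, genotype aMHC-CreTg/0-Ppp2r2aL/L) also carried Cre under the αMHC promoter, which is active in heart muscle cells, and the control groups (Ctrl, aMHC-Cre0/0-Ppp2r2aL/L) did not. Ctrl mice were 6 males and 6 females and cKO mice 7 males and 7 females, aged 12 to 16 weeks, and every mouse had 2 weeks of saline infusion. The background is mixed (floxed mice C57BL6/N, Cre mice FVB), so Cre carriers may hold FVB sequence that controls lack, and mice with Cre but no floxed allele were not analysed here. Each library is a separate sample of a group. The labels do not describe litters, so p-values measure the spread between these samples.

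Polycystin-1, the product of Pkd1, is a very large receptor-like membrane protein with a long extracellular part. Polycystin-2, the product of Pkd2, is a cation channel of the TRP family. They assemble with each other at the primary cilium, polycystin-2 also resides in the endoplasmic reticulum, and mutations in either gene cause autosomal dominant polycystic kidney disease. In heart muscle cells polycystins are known to bear on calcium handling. Piezo1 encodes a large channel that opens when the membrane is stretched and is best known in endothelium, where it senses blood flow.

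The 3 genes lie on separate chromosomes and differ in transcript length, a property that bears on these libraries. Pkd1 (ENSMUSG00000032855, chromosome 17, plus strand) has up to 46 exons in a transcript and a longest annotated transcript of 14.164 kb, longer than 99.5% of tested genes. Piezo1 (ENSMUSG00000014444, chromosome 8, minus strand) has up to 51 exons and 8.219 kb, at the 95.2 percentile. Pkd2 (ENSMUSG00000034462, chromosome 5, plus strand) has up to 15 exons and 5.219 kb, at the 81.1 percentile. The median tested gene had 3192 nt. Pkd1 overlaps the opposite-strand gene Tsc2, and Piezo1 overlaps the opposite-strand genes Ctu2 and Gm20388. Libraries were stranded, but whether counting used strand is not given in the sources used here, so reads in these overlaps cannot be assigned with certainty. On the same strand, Pkd1 overlaps the miRNA gene Gm24589 and Piezo1 the snRNA gene Gm26497, which strand does not separate.

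The 250 bases upstream of each RefSeq gene start are shown because the levels of the 3 genes are compared over mice below. They are from GRCm38.p6, 5′ to 3′ on the gene's strand, at chr17:24549700-24549949 (Pkd1, plus strand), chr5:104459207-104459456 (Pkd2, plus strand) and chr8:122551330-122551579 (Piezo1, minus strand). Capitals mark GGGCGG, the box bound by Sp1-type factors, the letters TATAAA of a core promoter element, and the core GGAATG that TEAD factors bind, each searched on both strands.
Pkd1: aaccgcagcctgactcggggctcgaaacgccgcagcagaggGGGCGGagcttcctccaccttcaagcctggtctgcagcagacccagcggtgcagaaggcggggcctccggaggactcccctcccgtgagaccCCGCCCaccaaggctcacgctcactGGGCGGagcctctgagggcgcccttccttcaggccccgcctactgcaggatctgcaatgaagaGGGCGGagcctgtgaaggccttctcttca
Pkd2: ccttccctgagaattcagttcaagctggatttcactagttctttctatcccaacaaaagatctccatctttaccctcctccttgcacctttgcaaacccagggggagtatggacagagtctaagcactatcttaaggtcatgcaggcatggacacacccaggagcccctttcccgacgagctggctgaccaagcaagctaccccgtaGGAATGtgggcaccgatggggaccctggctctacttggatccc
Piezo1: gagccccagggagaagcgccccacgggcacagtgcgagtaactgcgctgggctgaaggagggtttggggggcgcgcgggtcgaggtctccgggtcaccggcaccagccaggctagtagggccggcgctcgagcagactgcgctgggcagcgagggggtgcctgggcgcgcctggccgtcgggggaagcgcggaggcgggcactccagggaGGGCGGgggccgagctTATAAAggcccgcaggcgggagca
The Pkd1 window held 4 copies of GGGCGG and had 67.2% GC. The Piezo1 window held 1 copy of GGGCGG and, nearer the start, 1 of TATAAA, and had 74% GC, and the Pkd2 window held 1 GGAATG and had 52.8% GC. Of 32851 windows of this length, 32.7% held GGGCGG, 12.4% held TATAAA and 12.6% held GGAATG. The motifs were chosen after the sequences were seen, and a match describes letters only.

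Total counts were 14.4 to 30.9, in units of 1e6 counts per library, and each member had at least 584 counts in every mouse. Levels are given as CPM, counts per 1e6 of the TMM-scaled library total. The targeted gene Ppp2r2a was 11.8 to 16.2 CPM in cKO males and 9.96 to 16.2 CPM in cKO females. It was 36.2 to 46.7 CPM in Ctrl females and 24.1 to 47.7 CPM in Ctrl males, where mice 3 and 6 (24.9 and 24.1 CPM) stood below the other 4 (41.9 to 47.7 CPM) and above every cKO mouse. The labelled tissue carried abundant cardiomyocyte markers (Myh6, Tnnt2, Tnni3, Actc1, Ryr2 and Pln summed to 47951 to 67051 CPM), and the atrial markers Myl7, Myl4 and Sln summed to at most 2.31 CPM. In whole tissue, fewer cells of a type and less RNA per cell cannot be told apart.

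Per kb of longest transcript and over all mice, Pkd2 was at 8.40 ± 1.13 CPM per kb, Pkd1 at 6.06 ± 0.657 and Piezo1 at 5.77 ± 0.720 (SD, n = 26). These levels stood at the 68.0, 60.0 and 58.8 percentiles of tested genes, so all 3 were mid-range transcripts of the ventricle. Pkd1 and Piezo1 differed by less than the spread between mice, and the lowest Pkd2 mouse (6.48) was below the highest Pkd1 mouse (7.01).

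Pkd1, the polycystin receptor, varied least among mice. Ctrl males had 78.8, 67.9, 77.3, 75.03, 70.7 and 73.0 CPM (mice 1 to 6), with a mean of 73.8 ± 4.08 (SD, n = 6). The 7 cKO males ranged from 84.1 to 99.3 CPM with a median of 90.5 CPM and a mean of 91.6 ± 6.46 (SD, n = 7). No cKO male overlapped the Ctrl males, a separation that goes with the choice of the gene (groups did not overlap for 1.28% of tested genes, from which nothing is read here). Ctrl females had 86.3, 85.6, 90.4, 79.0, 76.2 and 96.1 CPM, a mean of 85.6 ± 7.31 (SD, n = 6). The cKO females ranged from 77.9 to 98.5 CPM with a median of 92.7 CPM and a mean of 90.5 ± 7.18 (SD, n = 7). The Ctrl males were therefore the lowest group, and the other three groups overlapped widely.

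**Figure D1:**
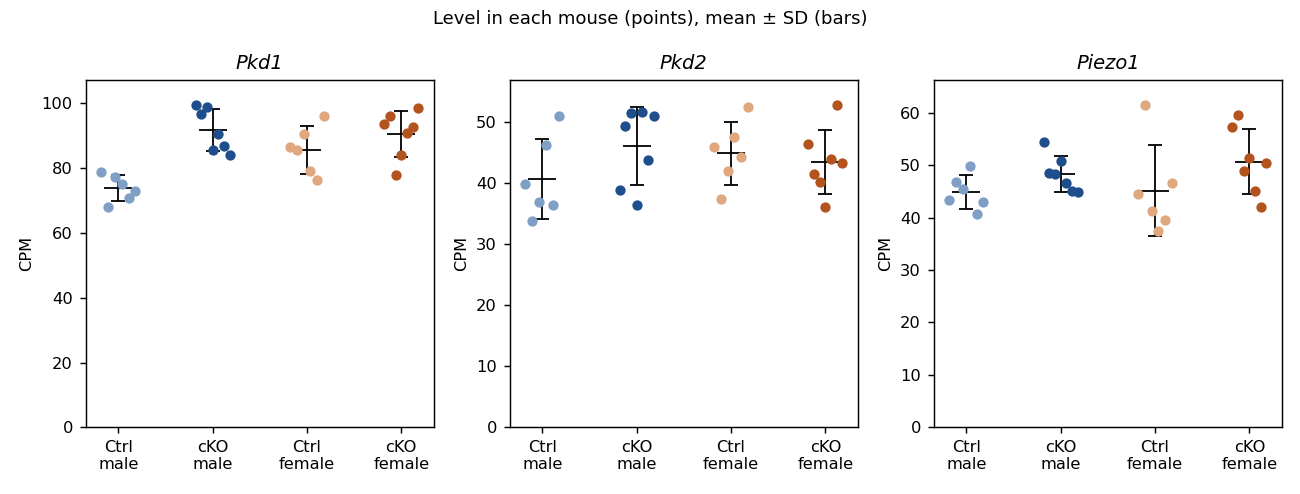
Level of Pkd1, Pkd2 and Piezo1 in CPM (y axis) in each mouse (points) of the 4 groups, with the group mean and SD as bars. Pkd1, chosen for its male rise, reached at most 78.8 CPM in the 6 Ctrl males and was at least 84.1 CPM in the 7 cKO males. Nothing is read from this separation (these groups did not overlap for 1.28% of tested genes). In the other contrasts the groups overlapped for Pkd1, and in every contrast they overlapped for Pkd2 and Piezo1.

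The male difference in Pkd1 was 0.31 on the log2 scale (SE 0.06, 95% interval 0.19 to 0.43), a rise of 24.1% that describes how the gene was selected. In all, 68 genes were called in males, 0.443% of those tested. Pkd1 was 1 of them, which its selection fixed, and nothing is read from this count. Without Ctrl males 3 and 6, whose Ppp2r2a was low, the Pkd1 difference was 0.32 (SE 0.07). The genes called in males went from 68 (28 higher) to 7 (1 higher) with these fewer mice. A count of calls depends on the number of mice and is not comparable with a difference. Its neighbour Tsc2, which encodes the mTORC1 restraint tuberin, ranged from 105 to 135 CPM in Ctrl males and from 116 to 146 CPM in cKO males and overlapped, with a log2 difference of 0.13 (SE 0.06). Over mice, deviations of Pkd1 and Tsc2 from their group means had r = -0.07 (n = 26). Summed cardiomyocyte markers averaged 57863 CPM in Ctrl males (54735 to 62095) and 53049 CPM in cKO males (47951 to 58239), and overlapped. Of these 6 genes, 1 was above 0 in males (Ryr2, 0.03), beside 50.3% of all genes, and the median was -0.11. Tnni3 (cardiac troponin I) was the 1 called lower in cKO males (log2 -0.24), beside 40 of all 15357 genes. Its longest transcript has 0.912 kb and that of Ryr2 16.8 kb. The part of these marker values in the Pkd1 difference was not tested.

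In females, which were not used to choose Pkd1, the difference between cKO and Ctrl was 0.08 (SE 0.06, 95% interval -0.04 to 0.20, n = 7 and 6). It did not pass the edgeR quasi-likelihood test (adjusted p = 0.975, Benjamini-Hochberg over all genes), and 5 of 7 cKO females were above the Ctrl mean. Female minus male, the difference of the genotype effects was -0.23 (SE 0.08) for Pkd1. It was not tested, because it contains the male contrast that chose the gene. Ctrl females were above Ctrl males by 0.21 (SE 0.06), with 5 of 6 females above the highest Ctrl male, and this comparison shares the Ctrl males with the male genotype contrast. Between cKO females and cKO males the difference was -0.02 (SE 0.06).

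Pkd2, the channel subunit, had 39.8, 33.8, 36.8, 46.2, 36.3 and 50.9 CPM in Ctrl males, a mean of 40.6 ± 6.58 (SD, n = 6). In cKO males it ranged from 36.3 to 51.7 CPM with a median of 49.4 CPM and a mean of 46.1 ± 6.44 (SD, n = 7). Ctrl females had 46.0, 37.3, 41.9, 47.5, 44.2 and 52.4 CPM, with a mean of 44.9 ± 5.12 (SD, n = 6). Every group spanned a similar range and all 4 overlapped. The cKO females ranged from 36.1 to 52.7 CPM with a median of 43.4 CPM and a mean of 43.4 ± 5.22 (SD, n = 7). The log2 difference was 0.18 (SE 0.10) in males and -0.05 (SE 0.10, 95% interval -0.25 to 0.16) in females, where it did not pass (edgeR adjusted p = 0.994).

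The sex contrasts of Pkd2 did not pass in Ctrl (0.14, SE 0.11, edgeR adjusted p = 0.640) or in cKO mice (-0.08, SE 0.10, adjusted p = 0.731). Polycystin-2 transcripts thus differed between groups by less than could be resolved with intervals of this width. The spread was wider than for Pkd1: the pooled SD within groups on the log2 CPM scale was 0.19 for Pkd2, 0.17 for Piezo1 and 0.11 for Pkd1.

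Piezo1, the stretch-gated channel, had 43.3, 46.9, 45.5, 49.8, 40.6 and 43.0 CPM in Ctrl males, a mean of 44.9 ± 3.23 (SD, n = 6). The cKO males ranged from 44.8 to 54.4 CPM with a median of 48.4 CPM and a mean of 48.4 ± 3.41 (SD, n = 7). Males of both genotypes thus formed narrow, overlapping groups. Ctrl females had 44.5, 61.3, 41.3, 37.4, 39.6 and 46.6 CPM, a mean of 45.1 ± 8.61 (SD, n = 6). In cKO females it ranged from 42.0 to 59.6 CPM with a median of 50.4 CPM and a mean of 50.6 ± 6.23 (SD, n = 7). The highest level in each female group was that of mouse 2, and the female groups overlapped.

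The log2 difference of Piezo1 was 0.11 (SE 0.09) in males. In females it was 0.17 (SE 0.09, 95% interval -0.02 to 0.35), which did not pass (edgeR adjusted p = 0.948), with 5 of 7 cKO females above the Ctrl mean. Only 5 genes, 0.0326% of those tested, were called in this contrast and none of the 3 members was among them. By edgeR's unadjusted p, 0 of the 3 members were under 0.05, beside 791 of all 15357 genes. Neither DESeq2 (9 of all genes called) nor limma voom (4 of all genes) called any member. Without Ctrl female 2 the Piezo1 difference was 0.27. Without both female mice numbered 2, a setting not planned beforehand, it was 0.23 (SE 0.07). The adjusted p was at least 0.603 over the 24 alternatives that gave one, these included. The sex contrasts were 0.01 in Ctrl (SE 0.09, edgeR adjusted p = 0.987) and 0.06 in cKO mice (SE 0.09, adjusted p = 0.771). The sign in Ctrl turned under some settings. Of all genes tested, 0.638% were called between the sexes in Ctrl and 2.7% in cKO mice, and neither Pkd2 nor Piezo1 was among them.

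Transcript length was followed because Pkd1 is among the longest transcripts measured. In males, the log2 difference between cKO and Ctrl rose with length across genes (Spearman rho = 0.25 over 15092 genes, which are not independent replicates). Its median was -0.06 for transcripts under 1 kb, -0.01 from 2 to 4 kb, 0.08 from 8 to 10 kb and 0.09 at 14 kb or more. Of the 342 tested genes of at least 10 kb, 266 had a male difference above 0 with a median of 0.10, beside 50.3% of all genes and a median of 0.001. In females the rho was 0.10, and 197 of the 342 were above 0 with a median of 0.02. Within the 81 genes of at least 14 kb, 9 had a larger male difference than Pkd1 and 21 a larger female difference. Pkd1 was chosen for its male rise, so nothing is read from its male place. Among the 462 genes from 8 to 10 kb, 179 exceeded Piezo1 in males and 59 in females. For Pkd2, 13.7% of the 3320 genes from 4 to 6 kb had a larger male difference and 73.5% a larger female one.

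**Figure D2:**
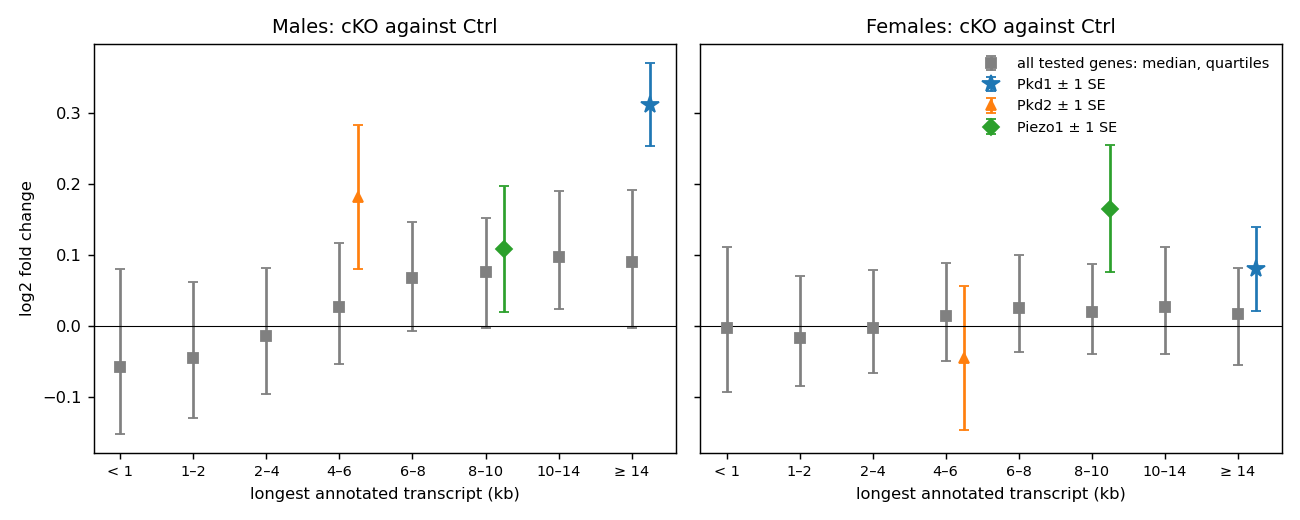
Log2 difference between cKO and Ctrl (y axis) by length of the longest annotated transcript in kb (x axis), in males (left) and females (right); grey squares are medians of all tested genes in a bin with quartiles, and symbols are the members ± 1 SE. In males the medians climb from -0.06 to 0.09. Pkd1, chosen for its male rise, is at 0.31, and the upper quartile of its bin is 0.19.

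The trend was also seen library by library, as the slope of log2 CPM on log2 transcript length relative to the mean over mice. It averaged -0.008 ± 0.022 log2 units per doubling of length in Ctrl males (SD, n = 6) and 0.025 ± 0.008 in cKO males (SD, n = 7). All 7 cKO males had positive slopes, from 0.012 to 0.038, while Ctrl males ran from -0.032 to 0.026 and overlapped them. Females averaged -0.015 ± 0.022 (Ctrl, n = 6) and -0.005 ± 0.028 (cKO, n = 7), and mouse 2 had the lowest slope of each female group (-0.043 and -0.060).

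When the trend with length and GC content was removed from each library, the male Pkd1 difference fell from 0.31 to 0.18 (SE 0.06). With length alone removed it was 0.20. After removal of both, Ctrl males had Pkd1 log2 CPM of 6.13 to 6.35 and cKO males 6.38 to 6.58. These ranges belong to the contrast that chose Pkd1, and nothing is read from their separation. The male Piezo1 difference went to -0.004 (SE 0.09) and the male Pkd2 difference to 0.14 (SE 0.10). In females the values became 0.03, -0.07 and 0.11 for Pkd1, Pkd2 and Piezo1. Genes called in males went from 68 to 15 with this correction, with 1 of the 15 higher in cKO. The correction also removes any change in RNA that itself depends on length or GC, and these cannot be told apart here.

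**Figure D3:**
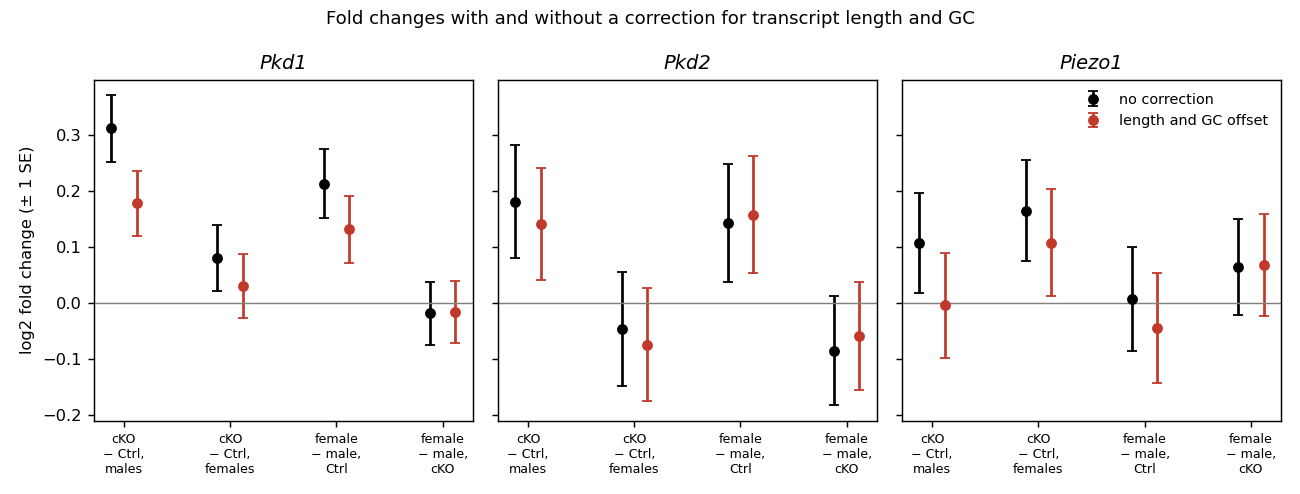
Log2 fold change ± 1 SE (y axis) of each member in the 4 contrasts (x axis), without (black) and with (red) removal of the trend with transcript length and GC content. The male Pkd1 value drops from 0.31 to 0.18 and the male Piezo1 value from 0.11 to about 0, while Pkd2 moves little.

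Members were also compared mouse by mouse as deviations from the group means of log2 CPM, which do not use the contrast that chose Pkd1. The polycystin pair Pkd1 and Pkd2 had r = 0.28 and rho = 0.24 (n = 26, permutation adjusted p = 0.281 and 0.378 over 6 relations, two-sided). Pkd1 and Piezo1 had r = 0.31 and rho = 0.35 (permutation adjusted p = 0.281 and 0.321), and Pkd2 and Piezo1 had r = -0.36 and rho = -0.30 (permutation adjusted p = 0.214 and 0.321). The raw permutation p of r was 0.180, 0.187 and 0.0603 in the same order. Without the 2 mice farthest from the median on the first gene, r was 0.27, 0.26 and -0.36. None of the 3 pairs passed, so a common course of these transcripts over mice was not resolved.

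The length slope of a library had r = 0.03 with Pkd1, 0.05 with Pkd2 and -0.42 with Piezo1 (n = 26, permutation adjusted p = 0.888, 0.888 and 0.214). Raw permutation p-values were 0.888, 0.820 and 0.0713. The rho values were 0.14, 0.03 and -0.31 (permutation adjusted p = 0.621, 0.884 and 0.321), and r without the 2 farthest mice was 0.09, 0.07 and -0.28. For Pkd1 the r within a group ran from -0.16 in Ctrl males to 0.79 in the 7 cKO males. For Piezo1 it was 0.24 in Ctrl males, 0.42 in cKO males, -0.68 in Ctrl females and -0.62 in cKO females.

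The genes whose deviations most resembled those of each member over the 26 mice were listed by Pearson r, as a description of libraries that also share depth and composition. For Piezo1 the first was Nos3, the endothelial nitric oxide synthase, at r = 0.92 and rho = 0.91, with at least 0.70 within each group. Nos3 ranged from 38.8 to 44.7 CPM in Ctrl males, 36.6 to 49.3 CPM in cKO males, 35.5 to 69.2 CPM in Ctrl females and 33.4 to 67.0 CPM in cKO females. As with Piezo1, mouse 2 was the highest of each female group. Without those 2 mice r was 0.85 and Nos3 stayed first of all tested genes, as it did after the length and GC correction (r = 0.93). Next were Plekhg2 (r = 0.90), Jag2 (a Notch ligand, 0.88), Nova2 (a splicing factor found in neurons and endothelium, 0.88) and Litaf (0.88). Without the 2 female mice numbered 2 their ranks were 3 for Plekhg2, 9 for Jag2, 11 for Nova2 and 25 for Litaf (r = 0.73), so those mice bear on these places. Nos3 itself did not pass between genotypes in males (log2 0.02, SE 0.14) or in females (0.07, SE 0.14; edgeR adjusted p = 0.978 and 0.989).

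Likeness was weaker for the polycystins. For Pkd1 the list was Trmt2a (a tRNA methyltransferase, r = 0.78), Lrrn1 (0.76), Agrn (agrin, a basement membrane proteoglycan, 0.71), Ppp1r15b (a PP1 regulatory subunit acting on eIF2α, 0.70) and Fam53c (0.70). Lrrn1 averaged 0.835 CPM and ranked 106 after the length and GC correction, whereas Trmt2a stayed first. The lowest r within a group was 0.24 for Trmt2a and -0.09 for Lrrn1. The male genotype difference of Trmt2a was -0.03 (SE 0.07). For Pkd2 the list was Mis18a (a centromere factor, r = 0.72), Rfc2 (a clamp loader subunit of DNA replication, 0.71), E2f1 (a cell cycle transcription factor, 0.71), Ankrd13a (0.71) and Septin8 (a cytoskeletal GTPase, 0.70). Mis18a and E2f1 were low, with means of 3.26 and 1.72 CPM. Without the females numbered 2, Mis18a ranked 13, Rfc2 14 and Ankrd13a 12, while E2f1 ranked 2 and Septin8 5.

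**Figure D4:**
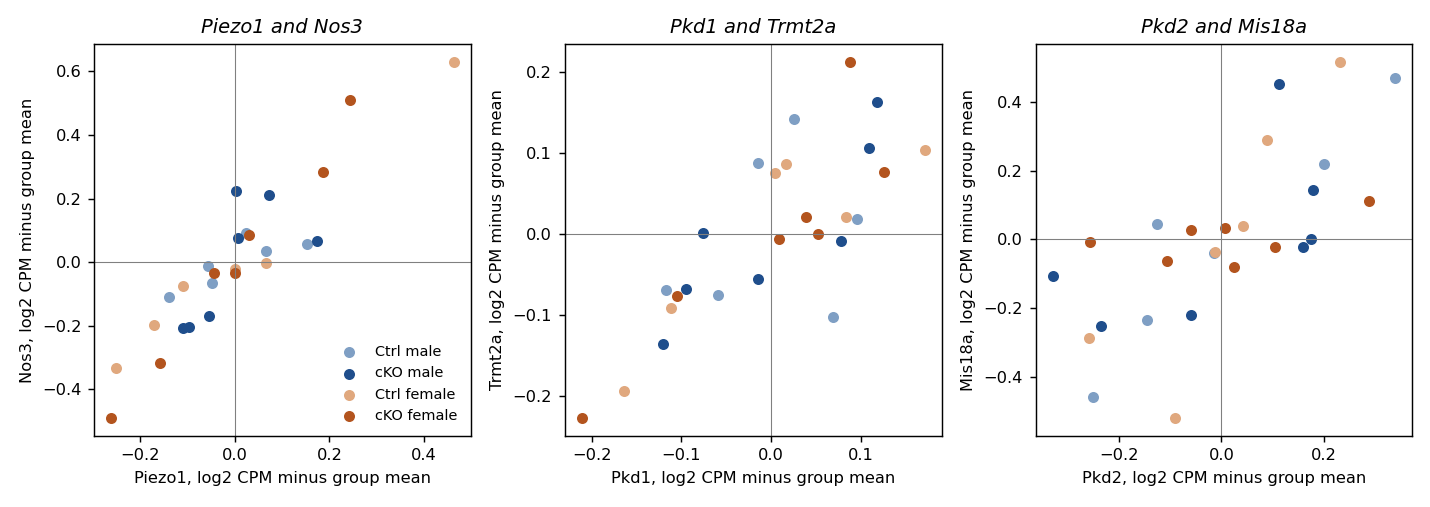
Deviation from the group mean of log2 CPM in each of 26 mice for a member (x axis) and the gene most like it over all mice (y axis), coloured by group: Piezo1 with Nos3 (r = 0.92), Pkd1 with Trmt2a (r = 0.78) and Pkd2 with Mis18a (r = 0.72). Piezo1 and Nos3 lie close to a line, with mouse 2 of each female group at the upper right.

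Of the 7 relatives of the members, 4 were near absence in this tissue. Pkd1l1, Pkd1l2, Pkd1l3 and Pkd2l1, polycystin paralogs, reached at most 4, 2, 5 and 1 counts in any mouse and were not tested. Pkd2l2 was detected in every mouse, with group means from 20.4 to 23.1 CPM, and Pkdrej, a polycystin-1 relative known from sperm, had group means from 6.48 to 7.51 CPM. Piezo2, the channel of touch neurons, had group means from 0.635 to 0.709 CPM. None of these 3 passed in any of the 4 contrasts. Pkd2l2 overlaps the opposite-strand gene Fam13b in GENCODE M21, so its counts are uncertain, and reads of paralogs could be split by the counting.

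Lists of other mechanosensory, polycystic disease, cilium, calcium and YAP pathway genes held 90 tested genes beside the members. In males 66 of the 90 were above 0 with a median log2 difference of 0.05, beside 50.3% of all genes and a median of 0.001. The edgeR test called 0 of them in males, 13 had an unadjusted p under 0.05 (2027 of all 15357 genes), limma voom called 0 (188 of all genes) and DESeq2 called 1 (386 of all genes). That gene was Trpm7, a channel kinase (0.19, SE 0.05, edgeR adjusted p = 0.0877), chosen after its values were seen. In females 46 of the 90 were above 0 with a median of 0.005, beside 51.1% of all genes and a median of 0.003. None of the 90 was called there by edgeR, DESeq2 or limma voom, and 5 had an unadjusted p under 0.05 (791 of all genes). The median length-related shift of long transcripts in males was described above, and its part in this list was not tested.

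**Figure D5:**
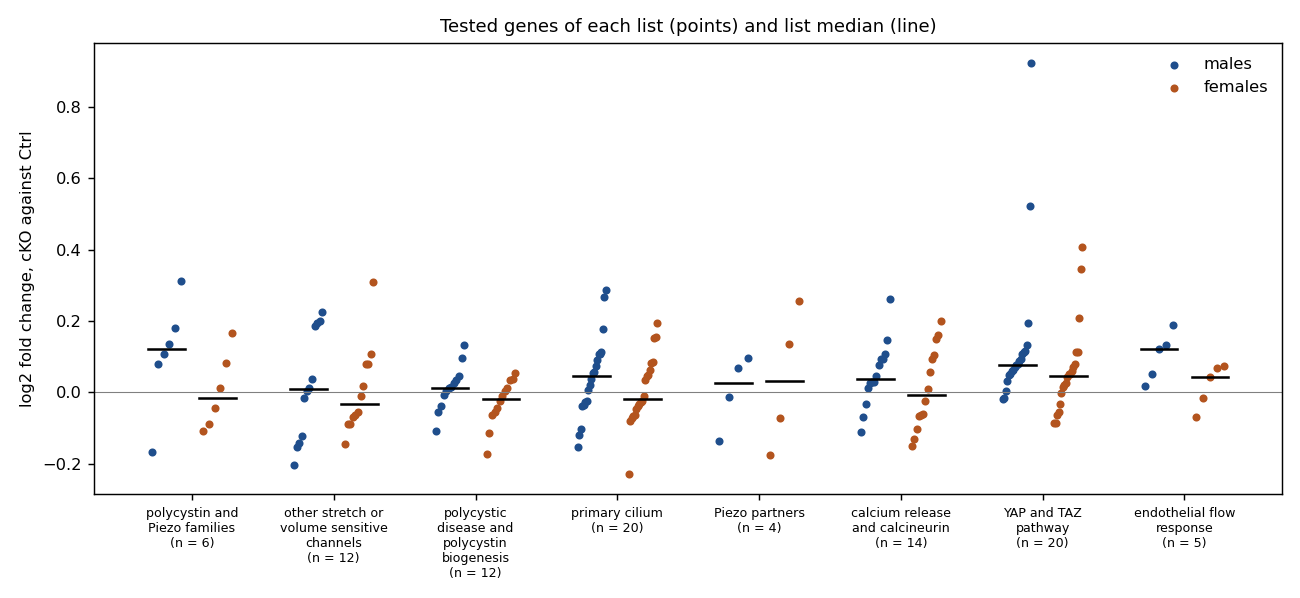
Log2 difference between cKO and Ctrl (y axis) of the tested genes of each list (x axis, members included), in males (blue) and females (orange), with the list median as a line. List medians run from -0.03 to 0.12, and the 2 highest male points are Ccn2 (0.92) and Ankrd1 (0.52).

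The YAP and TAZ pathway carries stretch signals to the nucleus through TEAD factors. In males 18 of its 20 tested genes were above 0 (50.3% of all genes) with a median of 0.08. Of the 20, 4 had an unadjusted p under 0.05 (2027 of all 15357 genes) and edgeR called 0. In females 14 of 20 were above 0 (51.1% of all genes) with a median of 0.05. There, 0 were called and 0 had an unadjusted p under 0.05 (791 of all genes). The targets Ccn2 and Ankrd1, chosen after their values were seen, had the highest male values. Ccn2 averaged 77.7 ± 31.1 CPM in Ctrl males and 147 ± 37.7 CPM in cKO males (SD, n = 6 and 7), a difference of 0.92 (SE 0.31, edgeR adjusted p = 0.165). Ankrd1 differed by 0.52 (SE 0.20, edgeR adjusted p = 0.238).

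Of all genes tested, 50.3% were above 0 in males and 51.1% in females. Of the cilium genes 13 of 20 were above 0 in males (median 0.05) and 9 of 20 in females (median -0.02). For polycystic disease and polycystin biogenesis the counts were 8 of 12 (median 0.01) and 5 of 12 (median -0.02), and for other stretch or volume sensitive channels 7 of 12 (median 0.01) and 5 of 12 (median -0.03). Calcium release and calcineurin genes had 11 of 14 (median 0.04) and 7 of 14 (median -0.01), Piezo partners 2 of 4 in both sexes (median 0.03), and endothelial flow response genes 5 of 5 (median 0.12) and 3 of 5 (median 0.04). The edgeR test called 0 genes of each of these lists in either sex (68 of all 15357 genes in males and 5 in females). By its unadjusted p, 0 to 4 per list were under 0.05, beside 2027 of all genes in males and 791 in females.

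Between the sexes, 0 of the 90 passed in Ctrl by edgeR or limma voom, with 12 at an unadjusted p under 0.05 (1854 of all 15357 genes), and DESeq2 called 2, Arl3 and Trpm7 (253 of all genes). With the length and GC offset edgeR also called Arl3 and Trpm7 in Ctrl, with the length offset Arl3, and with only the compared groups Tmem150c, lower in females. These 3 genes were chosen after their values were seen. In cKO mice 6 passed in edgeR, 4 higher and 2 lower in females, beside 1.43% of all genes higher and 1.27% lower. Higher were Axl (a receptor kinase and YAP target, 0.31, adjusted p = 0.0260), Tead3 (0.28, adjusted p = 0.0320), Bbs2 (a BBSome subunit that serves traffic to cilia, 0.35, adjusted p = 0.0330) and Amotl2 (a YAP-binding angiomotin, 0.23, adjusted p = 0.0472). Lower were Stk4 (the Hippo kinase MST1, -0.21, adjusted p = 0.0370) and Tead1 (-0.27, adjusted p = 0.0385). Tead1 averaged 202 ± 11.7 CPM in cKO males and 167 ± 10.3 CPM in cKO females (SD, n = 7 each). DESeq2 and the 5 CPM filter called all 6 and also Arl3 and Tmem150c, beside 708 and 482 of all genes tested. In limma voom all 6 and Tmem150c were called, beside 670 of all genes. Without the 2 female mice numbered 2, a setting not planned beforehand, 0 of the 90 and 312 of all 15460 genes tested were called. The log2 difference between cKO females and cKO males fell with transcript length across genes (Spearman rho = -0.17 over 15092 genes). With the length and GC offset, Axl and Bbs2 of the 6 stayed called and Trpm7 was called as well (327 of all genes). With the replicate block added, Axl alone of the 90 was called (209 of all genes). Stk4 and Tead1 (longest transcript of Tead1 9.964 kb) lost their calls under each length offset. The replicate block alone ended the calls of Stk4 and Tead1. All 6 differences kept their sign in 25 alternatives, and each gene passed in 9 to 21 of them.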

How the data were processed

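Left ventricle RNA (about 20 mg of tissue, RNA integrity number at least 7.7, 500 ng input, stranded poly-A libraries, per the labels' protocols) was sequenced from 26 mice. The deposited matrix holds raw whole-number counts by gene, made by the authors. Per the submitters' processing notes the tools included FastQC 0.74, cutadapt 4.6, STAR 2.7.11a and HTSeq, with build GRCm39. The annotation release and use of strand in counting are not given in the sources used here.

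Tests were run with edgeR 4.0.16 under R 4.3.3, using filterByExpr (minimum count 10), TMM, 1 mean per group over all mice, robust quasi-likelihood F tests and Benjamini-Hochberg adjustment over 15357 genes, with calls at an adjusted p under 0.05. Each standard error is the fold change divided by the root of its F value. Log2 CPM used a prior count of 2. A floor of 3 counts lay between 0.0972 and 0.208 CPM per library, which covers counting error only. GENCODE M21 supplied longest-transcript length and GC content, matched on gene ID, for 98.3% of tested genes, and splines with 4 degrees of freedom per property gave the correction. Relations used 100000 permutations of mice within groups. Counts of 72 pairs within groups differed by 7.34 to 36.5 chi-square per degree of freedom, so no such pair agreed within sampling noise, and pairs across groups were not compared.

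The members and lists were chosen with earlier results of these data known. Genes named are the members, Ppp2r2a, Tsc2, list genes called in any contrast and the 5 genes most like each member, besides those said to be chosen after their values were seen. Alternatives were DESeq2 1.42.0 (size factors, Wald test), limma 3.58.1 voom with quality weights, other filters (none, or at least 5 CPM on average), a fit to only the compared groups, the replicate number as a block, length and GC offsets, an exact permutation test, and mice left out.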

Additional observations from a re-analysis of the deposited data

How the results depend on the processing

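Over the 24 or 25 alternatives of each contrast, the female Pkd1 difference kept its sign (0.03 to 0.12). It ran from 0.18 to 0.33 in males and from 0.13 to 0.24 between the sexes in Ctrl mice. The male contrast chose Pkd1 and the sex contrast shares its Ctrl males, so nothing is read from the sign of these ranges. No tested contrast of a member passed under any alternative. In males the Pkd1 value moved to 0.18 with the length and GC offset, 0.20 with the length offset and 0.18 with the length and GC offset and replicate block, which remove the trend by construction. The Pkd1 difference between the sexes in cKO mice, with no test, ran from -0.04 to 0.02. The Piezo1 difference between Ctrl females and Ctrl males, 0.007, turned to -0.0021 with the replicate block, -0.044 with the length and GC offset, -0.060 with that offset and the block, -0.060 with limma voom, -0.0041 without Ctrl males 3 and 6 and -0.10 without the females numbered 2, and ran from -0.101 to 0.0564 with single mice left out; the cause was not tested. The female Pkd2 difference ran from -0.0983 to 0.0026 with single mice left out. With the offset, which removes the trend by construction, the relation of the length slope became -0.349 with Pkd1, -0.0528 with Pkd2 and -0.571 with Piezo1, and none passed. In exact permutation tests over mice the female differences had p = 0.252 for Pkd1, 0.616 for Pkd2 and 0.168 for Piezo1.

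Counts of genes called moved more. In males, 68 became 31 with no filter, 164 at a mean of at least 5 CPM, 15 with the length and GC offset, 17 with the length offset, 17 with the offset and block, 386 by DESeq2, 188 by limma voom, 7 without Ctrl males 3 and 6 and 160 without the females numbered 2, which are outside this contrast, and 4 to 79 with single mice left out. In females, 5 became 2 at 5 CPM, 3 with the block, 3 with the offset and block, 9 by DESeq2 and 1 with only the compared groups, and 3 to 7 with single mice left out. In Ctrl mice between the sexes, 98 became 253 by DESeq2, 61 with only the compared groups and 40 without Ctrl males 3 and 6, and 54 to 114 with single mice left out. In cKO mice, 414 became 244 with no filter, 209 with the offset and block, 708 by DESeq2 and 670 by limma voom, and 163 to 548 with single mice left out. Of 25 alternatives, Axl passed in 21, Tead3 in 14, Bbs2 in 13, Tead1 in 10, Amotl2 in 9 and Stk4 in 9, with the same sign in all.

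Mice that share a replicate number are not said to be related. Their correlation averaged -0.03 in males (0 of 6 pairs over 0.1, 1 of 6 mice correlating best with its own number) and 0.12 in females (3 of 6 pairs over 0.1, 2 of 6 best with its own number). Among pairs of equal number, the Ctrl and cKO females numbered 2 had the highest r, 0.40, and those numbered 1 had 0.28. Ctrl and cKO females of unlike number averaged -0.02. The labels give no pairing, so the numbers were not taken as pairs, and a tie between the females numbered 2 was not tested. With the replicate block 75 genes were called in males and 3 in females, and the female Piezo1 difference was 0.18 (edgeR adjusted p = 0.957). Depth limits the paralogs with at most 5 counts.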

Other observations

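Single genes of the endothelial lists were set against Piezo1 over the 26 mice after the likeness to Nos3 had been seen, as deviations from the group means of log2 CPM. Klf4 and Klf2, transcription factors induced by laminar flow, had r = 0.75 and 0.49, and Thbd (thrombomodulin) had r = 0.54. The pan-endothelial markers Pecam1 and Cdh5 had r = 0.18 and 0.09, and Edn1 (endothelin-1) had 0.02. Kdr (the VEGF receptor VEGFR2), Tek (the angiopoietin receptor) and Emcn (endomucin, of capillaries and veins) had negative values of -0.59, -0.44 and -0.43, while Tie1 and Vwf of the same list had -0.10 and 0.10. The summed endothelial markers had r = -0.28 with Piezo1. Without the 2 female mice numbered 2, r was 0.56 for Klf4, 0.28 for Klf2, 0.37 for Thbd, -0.18 for Kdr, -0.28 for Tek, -0.30 for Emcn, 0.10 for Tie1 and 0.35 for Vwf. With summed markers of cardiomyocytes, fibroblasts, and smooth muscle and pericytes, Pkd2 had r = -0.49, 0.45 and 0.48, and Pkd1 had -0.36, 0.40 and 0.06. Within the endothelial list Pkd2 had values from -0.47 (Vwf) to 0.54 (Tek). All mice share these values' scaling to library totals, and no p-value is given.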
